A study of Homo sapiens with 6 samples.

Results

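Ribosome footprints were examined for 9 genes of the cytosolic protein folding system, chosen by name: the HSP40 (J-domain) co-chaperones DNAJA1, DNAJA2, DNAJB1, DNAJB4 and DNAJB6, the small heat shock proteins HSPB1, HSPB8 and CRYAB, and the co-chaperone BAG3. A row was found for 8 of the 9, among 11227 genes named in any of the tables. HSPB8 had no row under its symbol and has no value below. The cells were CHL-1, an established human melanoma line, and the 6 libraries fell into 3 conditions of 2 libraries, of which 1 per condition is labelled as having ribosomal RNA removed. The conditions were the untreated parental cells, CHL-1 cells carrying a CRISPR edit of SNORD50A/B, which are small nucleolar RNA genes of the box C/D class, and CHL-1 cells given 10 mM AZC with 20 µM MG132 for 20 minutes. They are called parental, edited and treated below. AZC (L-azetidine-2-carboxylic acid) is a proline analog that is built into new proteins, and MG132 blocks the proteasome. The labels name no control-edited line and do not say whether the edited cells are 1 clone or a pool. Each condition has 1 table, so differences below are between single tables, with no spread between replicates and no test, and "higher" or "lower" states only the order of 2 values.

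J-domain proteins bring unfolded clients to HSP70 and stimulate its ATPase, and the A and B classes differ in the domains that follow the J domain. Small heat shock proteins form large oligomers that hold misfolding proteins without using ATP, and BAG3 is a nucleotide exchange factor that joins HSP70 to small heat shock proteins. Part of this set is induced by the transcription factor HSF1 when misfolded proteins accumulate, while other members are made in unstressed cells.

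Levels are given as normalised depth, the read depth summed over the 400 bins of its transcript (100 for the 5′ UTR, 200 for the coding sequence, 100 for the 3′ UTR), per 1000000 of the depth of the table. Depth grows with transcript length, so levels are compared between tables and not between genes. Total depth was 473.7, 586.5 and 367.3, in units of 1000000, for the parental, edited and treated tables. All 8 genes lay above the level minimum, the lower quartile of row sums, in each table. The nearest to it were DNAJB4 in the parental table, with a summed depth of 4589 against a minimum of 3187, and CRYAB in the edited one, with 4628 against 3697. Of 10 melanocyte lineage markers, 4 were above the minimum in the parental table (SOX10, S100B, S100A1 and ERBB3), 6 in the edited and 5 in the treated table. Mesenchymal markers above it numbered 5 of 5, 4 of 5 (without NGFR) and 5 of 5 (parental, edited, treated), with summed levels of 1036, 903.7 and 749.6. Of 6 epithelial markers KRT18 alone was above it, in each table, with summed levels from 10.8 to 21.2 for the list, and no blood or endothelial marker was. Among muscle markers, which matter here because muscle is rich in CRYAB, DES and ACTA1 were above it in the parental table and ACTA1 in the others. The summed muscle marker level was 113.8, 91.4 and 115.2 (parental, edited, treated), and its part in the CRYAB values was not tested.

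**Figure D1:**
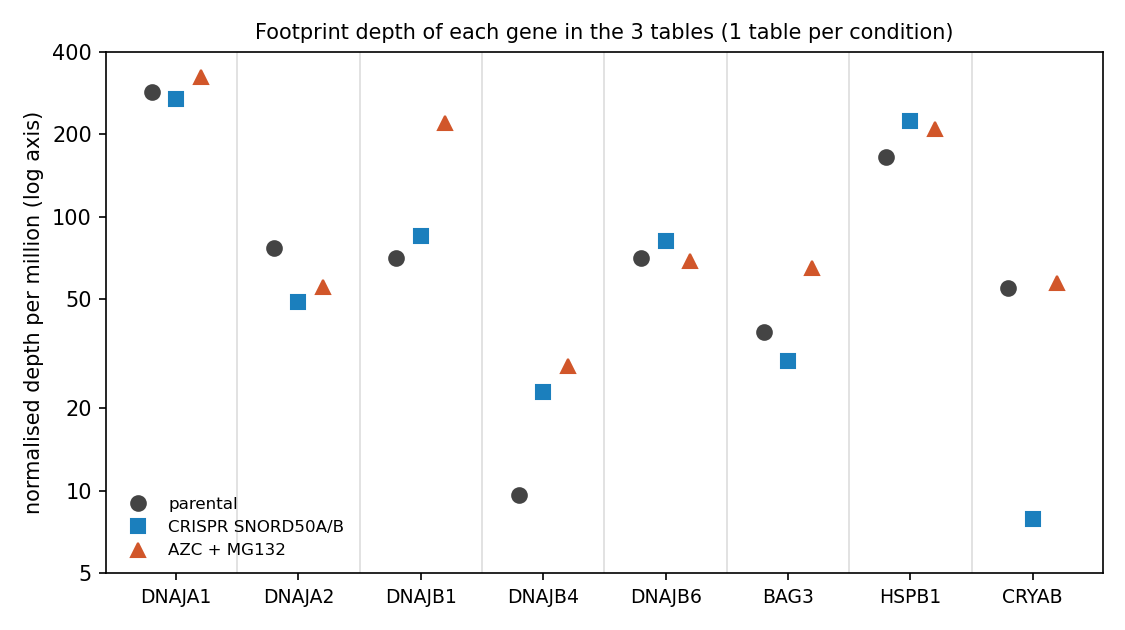
Normalised depth per 1000000 (log axis) of the 8 genes, with 1 point per table: circles for parental, squares for edited (CRISPR), triangles for treated (AZC + MG132). There are no error bars because each condition has 1 table. DNAJB1 stands apart in the treated (218.8) and CRYAB in the edited table (7.89).

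Treated cells were set against parental cells to ask which folding factors ribosomes occupied more after a short proteotoxic stress. DNAJB1 and DNAJB4, both of class B, stood highest relative to the parental table, and BAG3 came next. DNAJB6, also of class B, the class A proteins and the small heat shock proteins differed less. DNAJB1, the main stress-inducible HSP40 of the cytosol, had a normalised depth of 70.7 in the parental, 85.2 in the edited and 218.8 in the treated table. The treated table thus stood well above both others, 3.09-fold above the parental one, and DNAJB1 ranked 11 of the 7279 genes compared. DNAJB4, a close relative of DNAJB1, stood at 9.69, 22.9 and 28.5 in the same order of tables. It was lowest in the parental table and 2.94-fold higher in the treated one, rank 13 of 7279. Footprint depth in bulk cells cannot tell more messenger from more ribosomes per messenger, or a change in all cells from a change in some. DNAJB1 and DNAJB4 were the only 2 of 8 members that were 2-fold or more higher, and 0 were 2-fold or more lower. Across all genes compared, 0.866% were 2-fold or more higher and 2.39% lower. The median log2 ratio was 0.26 over the 8 members and -0.05 over all genes.

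BAG3, whose own induction by HSF1 is well known, stood at 38.0, 29.8 and 64.7 in the same order of tables. Its treated value was 1.70-fold the parental one, short of the 2-fold limit, and 3.34% of all genes had a ratio at least as high. HSPB1 (HSP27), an actin-associated small heat shock protein, stood at 164.9, 223.6 and 208.1. The parental table was the lowest of the 3, and the treated value was 1.26-fold above it. DNAJA1, a farnesylated class A protein that serves HSP70 in the cytosol, stood at 285.7, 268.7 and 322.8, a treated to parental ratio of 1.13. DNAJB6, a suppressor of polyglutamine aggregation, stood at 70.5, 81.2 and 69.0. For both genes the edited and treated values lay at most 1.15-fold from the parental one. CRYAB (αB-crystallin, HSPB5) stood at 55.0 before and 57.1 after treatment, a log2 ratio of 0.05. DNAJA2, the other class A protein, had the lowest ratio of the set after treatment, at 55.5 against 76.9, and 15.9% of all genes had a ratio that low or lower.

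**Figure D2:**
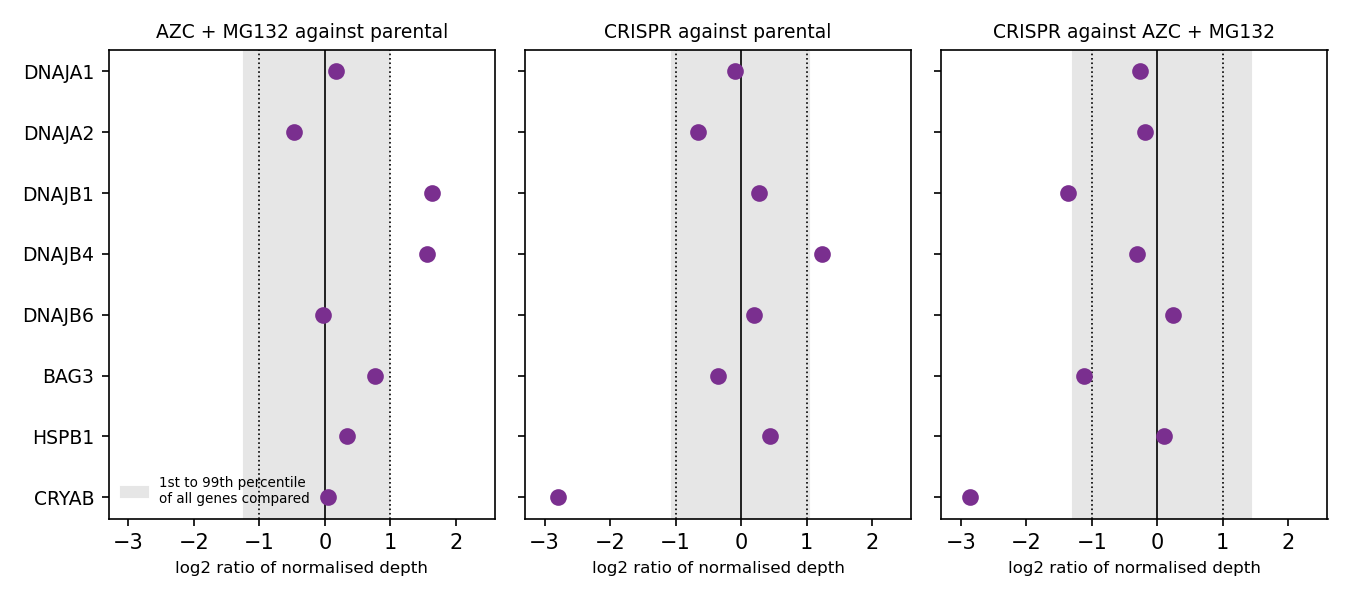
Log2 ratios of normalised depth for the 8 genes (points) in the 3 comparisons, with the 1st to 99th percentile of all genes compared in grey and the 2-fold limits dotted. DNAJB1 and DNAJB4 lie beyond the grey range in the first panel, DNAJB4 and CRYAB in the second, and CRYAB and DNAJB1 in the third.

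HSF1 binds heat shock elements, inverted repeats of the unit GAA, so promoters of the members were searched for GAANNTTC and TTCNNGAA. Both motifs read the same on either strand, and they may overlap. Of 35116 RefSeq promoters (GRCh38.p14, 250 bases before to 50 after a gene start), 13.5% held either or both. Promoters were matched for 8 of the 9 members, 11 windows in all, without CRYAB. Of these windows 7 held at least 1 motif, and they belonged to 6 members, HSPB8 among them. A run of 3 units, GAANNTTCNNGAA or TTCNNGAANNTTC, stood in 0.490% of all promoters and in those of DNAJB6 and DNAJA1. The stretches of the genes with the largest treated to parental ratios, DNAJB1 and DNAJB4, are shown with those of HSPB1 and DNAJB6, motif in capitals. They lie on the gene's strand, at chr19:14518456-14518485 and chr19:14518426-14518455 (minus), chr1:78004830-78004859, chr7:76302480-76302509 and chr7:157336864-157336893 (plus).
DNAJB1 upstream stretch: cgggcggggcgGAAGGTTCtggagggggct
DNAJB1 downstream stretch: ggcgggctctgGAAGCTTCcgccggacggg
DNAJB4: agcatttgctgTTCTAGAAagtacagagac
HSPB1: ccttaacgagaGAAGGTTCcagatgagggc
DNAJB6: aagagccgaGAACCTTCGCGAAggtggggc

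Counted from the gene start, the DNAJB1 motifs shown begin at -77 and -47, upstream of 1 of its 3 listed starts, and another of those starts has a motif at position 1, not shown. The DNAJB4 motif begins at -98 of 1 of its 2 listed starts, the HSPB1 motif at -182 and the DNAJB6 run at -131. The windows of BAG3 and DNAJA2 held none of these letters. A motif match is a description of the letters, and footprints do not measure transcription. The 3-unit runs belonged to DNAJB6 and DNAJA1, whose treated to parental ratios were 0.98 and 1.13. The DNAJA1 run begins at position 3, after the gene start. A link between motifs and footprint depth was not tested.

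Where along the messenger the footprints lay was compared next. The 5′ share of a gene divides the mean depth of its first 20 coding bins by its mean over all coding bins, and a 5′ shift is how far this share differed between a pair of tables, as a log2 ratio. After treatment 7 of 8 members had a 5′ shift above 0, where 77.7% of all genes compared did. The median shift was 0.98 over the members and 0.59 over all genes. BAG3 went from a 5′ share of 0.493 to 1.18 and DNAJB4 from 0.744 to 1.78, shifts of 1.26 each. CRYAB shifted by 1.18, from 1.30 to 2.95. The order of these genes depends on the window: with the first 10 coding bins BAG3 shifted by 3.07 and DNAJB4 by 0.71, and with the first 40 BAG3 shifted by 0.63 and DNAJB4 by 1.44, while CRYAB stayed between 1.08 and 1.18. In the parental table the first 10 coding bins of BAG3 held a normalised depth of only 0.16, so its shift of 3.07 rests on little depth. DNAJA1 went from 1.35 to 2.70 and HSPB1 from 0.581 to 1.13. DNAJB6 and DNAJA2 shifted by 0.66 and 0.63, near the median of all genes.

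DNAJB1 was the exception, with a 5′ share of 0.842 before and 0.810 after treatment. Its shift was -0.05, and 19.0% of all genes had a shift at or below it. With the first 10 coding bins in place of 20 the shift was 0.33, and with the first 40 it was 0.17, so its sign depends on the window and its size stayed under the median of all genes under each. The depth gained on DNAJB1 lay across the coding sequence, and all 20 windows of 10 bins were higher in the treated table, 16 of them 2-fold or more. The window of coding bins 51 to 60 held a normalised depth of 14.8 against 1.77, while the first window held 8.61 against 2.28. The last window, at the stop codon, was the highest in each table, with 6.23, 9.75 and 23.0 (parental, edited, treated).

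The coding sequence was then cut into 4 successive blocks of 50 bins. The treated to parental log2 ratio of all genes had medians of 0.24, -0.21, -0.36 and -0.42 from start to stop. The ratio of the first block stood above that of the last in 8 of 8 members and in 77.9% of all genes. On DNAJB1 the blocks were 3.20-fold, 4.61-fold, 2.35-fold and 2.47-fold the parental depth, so the gene was past 2-fold in each. On DNAJB4 they were 5.90-fold, 3.58-fold, 1.44-fold and 1.33-fold, past 2-fold in blocks 1 and 2 only. Of its 20 windows of 10 bins, 12 were 2-fold or more higher and 1 was 2-fold or more lower. Window 11, in block 3, was among those higher, at 0.98 against 0.32. BAG3 was 2.40-fold and 2.02-fold higher in blocks 1 and 2, then 1.32-fold and 1.51-fold. CRYAB ran from 1.82-fold in the first block to 0.350-fold in the last, the widest range of the set, behind a ratio over all bins close to 1. DNAJA1 ran from 1.73-fold to 0.799-fold, and DNAJA2 from 0.889-fold to 0.530-fold.

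**Figure D3:**
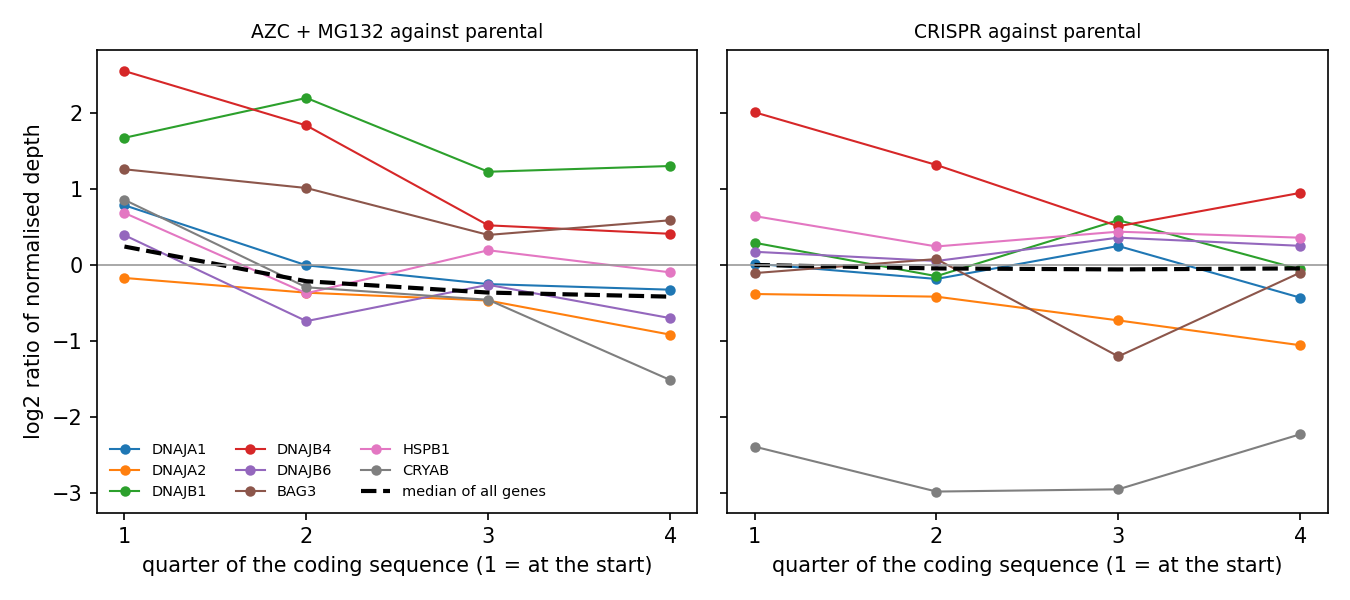
Log2 ratio of normalised depth in each block of 50 coding bins for the 8 genes (coloured lines) and the median of all genes compared (dashed), treated against parental on the left and edited (CRISPR) against parental on the right. DNAJB1 stays above 1 in all blocks of the left panel, while CRYAB goes from 0.86 to -1.52 there and lies below -2 throughout the right panel.

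The 5′ UTR of these messengers carried relatively more footprints in the treated cells. Its depth per coding depth was higher than in the parental table for 8 of 8 members, as it was for 81.1% of all genes, whose medians were 11.7% and 5.89%. DNAJB4 went from 3.33% to 12.8%, HSPB1 from 12.8% to 25.7%, DNAJA1 from 2.53% to 7.41% and DNAJB6 from 8.90% to 18.6%. The DNAJB4 values rest on little 5′ UTR depth, 0.30 in the parental and 3.01 in the treated table. DNAJB1 differed little, at 17.5% and 20.6%, since its 5′ UTR and its coding sequence stood 3.52-fold and 2.99-fold higher. On HSPB1 the 5′ UTR footprints lay at the same places in each table. Bins 41 to 60 held 50.1%, 46.4% and 45.0% of its 5′ UTR depth (parental, edited, treated), and the 20 bins before the start codon 38.7%, 41.2% and 43.6%. On DNAJA1 the last 20 bins held 80.9% of the 5′ UTR depth before and 51.5% after treatment, while the share of bins 41 to 60 went from 9.19% to 30.8%.

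CRYAB had an unusual layout in all tables, since its 5′ UTR depth was 87.6% of its coding depth in the parental, 74.2% in the edited and 108.4% in the treated table. The first 10 of its 100 5′ UTR bins, at the cap end, held 24.1%, 31.3% and 39.8% of the 5′ UTR depth in that order, and the 20 bins before the start codon 25.6%, 2.94% and 14.9%. The edited shares rest on little depth, 3.36 over the 5′ UTR and 0.10 in those 20 bins. Within the coding sequence the first 10 bins held 3.80 in the parental and 7.66 in the treated table, while the next 10 held 0 and 0.15. The last 20 held 0.52 and 0.07. The reading frame cannot be read from bins, so these footprints cannot be assigned to the CRYAB frame or to another one.

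**Figure D4:**
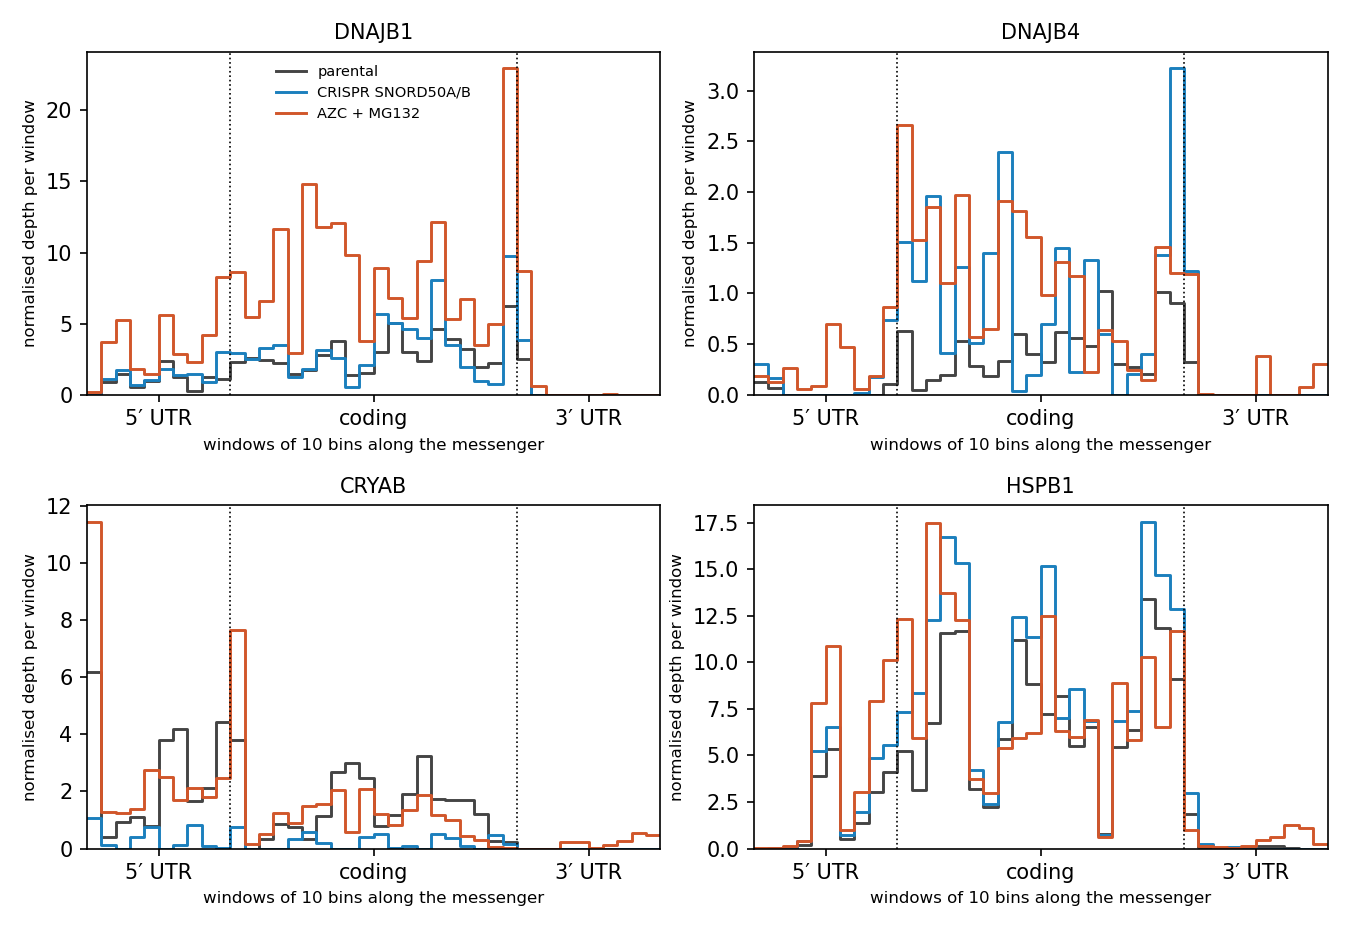
Normalised depth in windows of 10 bins along DNAJB1, DNAJB4, CRYAB and HSPB1, with dotted lines at the start and the end of the coding sequence and 1 line per table. The treated line lies above the parental one across the coding sequence of DNAJB1, mainly in the first part of DNAJB4, and at the first coding window of CRYAB (7.66 against 3.80).

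Footprints in the 3′ UTR were few. In the parental and edited cells they lay in the first 10 bins after the stop codon for every member that had any, apart from HSPB1, which also had depth further on. After treatment 7 of 8 members had depth beyond those 10 bins, and BAG3 had none there. Among 7075 genes that passed the minimum in every table the share with such depth was 43.6% in the parental, 35.5% in the edited and 60.9% in the treated table. On HSPB1 the last 50 bins of the 3′ UTR held a normalised depth of 3.70 in the treated and 0.29 in the parental table. CRYAB had 1.87 in its 3′ UTR after treatment and 0 in both other tables.

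Edited cells were set against parental cells to ask which of these messengers differed in footprint depth where SNORD50A/B was targeted. CRYAB stood far lower and DNAJB4 higher, and the remaining 6 members were within 1.57-fold. CRYAB, a holdase abundant in lens, muscle and glial cells, was at 7.89 in the edited against 55.0 in the parental table, 6.96-fold lower. This was the lowest ratio of all 7542 genes compared. Its coding sequence and its 5′ UTR were both lower, at 0.155-fold and 0.131-fold the parental depth. By block of 50 coding bins the log2 ratio lay between -2.99 and -2.23, so no single stretch carried it. Covered coding bins numbered 88 of 200 in the edited and 180 in the parental table. Of the 8 members 1 was 2-fold or more higher and 1 lower, where 1.1% and 1.3% of all genes were.

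DNAJB4 was at 22.9 in the edited against 9.69 in the parental table, 2.37-fold higher, rank 34 of 7542. Its depth was more concentrated in the edited table, where 134 of 200 coding bins were covered against 168, and the 10 deepest bins held 22.6% of coding depth against 16.2%. The blocks stood at 4.04-fold, 2.50-fold, 1.43-fold and 1.93-fold, past 2-fold in blocks 1 and 2 only. By windows of 10 bins the difference was scattered, with 11 of 20 windows 2-fold or more higher and 4 2-fold or more lower. Window 20, the last, was among those higher, at 3.23 against 0.90. Coverage was also lower for most other genes in this table, with a median of 66.5% of coding bins against 89%, and for 6 of 8 members. Without removal of the carried value of the row above, which the deposited coding bins contain, the DNAJB4 log2 ratio was 0.97, under the limit.

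Among the others, DNAJA2 stood at 49.0 in the edited and 76.9 in the parental cells, a log2 ratio of -0.65, and 5.86% of all genes were that low or lower. It was thus below the parental table in both comparisons, which share that table. HSPB1 was 1.36-fold and DNAJB1 1.20-fold higher. BAG3 was at 0.78-fold, and block 3 of its coding sequence had a log2 ratio of -1.20 against values between -0.11 and 0.08 in the others. DNAJA1 and DNAJB6 were at log2 ratios of -0.09 and 0.20. The median over the members was 0.06, and 0.0041 over all genes.

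By position, 6 of 8 members had a 5′ shift above 0 in the edited table, where 52.9% of all genes did. With this window of 20 bins the largest were BAG3 at 1.11 and DNAJB4 at 0.80, both genes with fewer covered bins there (127 and 134) than in the parental table (181 and 168). With the first 10 bins BAG3 was at 4.18, resting on a parental depth of only 0.16 in those bins. DNAJB4 was at 0.10 there, below DNAJA2 at 0.50. With the first 40 bins BAG3 and DNAJB4 were at 0.54 and 1.13. With 20 bins DNAJB6 was the lowest, at -0.42. The ratio of the first block stood above that of the last in 5 of 8 members and in 51.9% of all genes. Depth in the 5′ UTR per coding depth was higher for 6 of 8 members and likewise for 51.9% of all genes, with CRYAB and DNAJA2 as the exceptions.

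The edited and treated tables were also set side by side. CRYAB, DNAJB1 and BAG3 were 2-fold or more lower in the edited table and no member was 2-fold or more higher, where 2.34% of 7219 genes were lower and 4.16% higher. CRYAB was 7.23-fold lower, rank 2 of 7219 from the bottom, DNAJB1 was 2.57-fold lower and BAG3 2.17-fold lower. DNAJB4 stood above the parental table in both, and both of those comparisons share its low parental value of 9.69. Its edited and treated levels were 22.9 and 28.5, a log2 ratio of -0.32. In the last block of its coding sequence the edited table was the higher one, by 1.45-fold. A 5′ shift above 0 was found for 0 of 8 members, against 25.2% of all genes, and the median of the members, -0.48, lay close to the -0.52 of all genes.

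DNAJB6 has 2 listed transcripts, NM_058246 for the long nuclear form and NM_005494 for the short form found also in the cytosol. They share the first part of their coding sequence, so the same reads can enter both. The long form had more summed depth and gave the values above, and the short form stood at 63.8, 71.9 and 67.1 (parental, edited, treated). Its log2 ratios were 0.07 for the treated and 0.17 for the edited cells, and its 5′ shifts 0.62 and -0.49, each close to those of the long form.

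The remaining genes of the network were counted by list. Of 42 other J-domain proteins, 26 were compared in the treated cells, where 0 were 2-fold or more higher and 1, DNAJC13, was lower, with a log2 ratio of -1.62. In the edited line 29 were compared and DNAJB2, a neuronal class B protein, alone was past 2-fold, at 1.48. Its parental level was low, at 7.39, nearer the level minimum than the 9.69 of DNAJB4. Of all genes compared in that line, 1.1% were 2-fold or more higher and 1.3% lower. Of 7 other small heat shock proteins 0 could be compared, and HSPB2, which lies next to CRYAB in the genome, was the only one with a row. Of 12 BAG proteins and HSP70 cofactors 0 were past 2-fold in any comparison, with medians of -0.29 in the treated and -0.12 in the edited cells. HSP70 and HSP110 genes past 2-fold in the treated cells numbered 3 of 10, HSPA1A, HSPA1B and HSPA1L, and 0 of 11 in the edited line. HSPA1A and HSPA1B are near-identical copies, so the same reads can enter both, though their treated levels differed (594.6 and 711.6). HSPA1L, a more distant relative, stood at 13.7 in the parental and 41.6 in the treated table. Whether it shares reads with these copies was not tested. HSF1 and its partners had 0 of 3 past 2-fold.

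Genes with the most similar pair of ratios to the parental table were sought among 3530 genes with a mean level above the median, by the distance between points whose axes are the treated and the edited log2 ratio. They rest on 3 tables only. Among the nearest to CRYAB was MRPS21, at a log2 ratio of 0.49 for the treated and -2.54 for the edited cells and a distance of 0.50. Among the nearest to DNAJB1 was SZRD1, at 1.30 and 0.30 and a distance of 0.33. Nearest to DNAJB4 were 2 genes further off: IFRD1, at 1.69 and 0.69, was 0.57 away and the histone gene H3C11, at 0.96 and 0.93, was 0.68 away.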

How the data were processed

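The 6 ribosome profiling libraries entered 3 deposited tables, 1 per condition. How the libraries were pooled is not stated. Per the submitters' processing notes the tools were Bowtie2 and TopHat2 and the build hg19, without versions. The deposited values are log2(x + 1), with x read as the read depth summed over the bases of a bin, rounded by the authors to 2 decimals. Bins were read as 100 for the 5′ UTR, 200 coding and 100 for the 3′ UTR. The last 3 rows of each table are summaries and were left out.

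Depth was taken as 2 to the power of the value, minus 1. In coding bins the deposited value of the row above was subtracted, after which 100% of low coding bins (log2 under 4) were whole within 0.12. Names came from the RefSeq table of GRCh38.p14 and left 219, 237 and 211 rows of the parental, edited and treated tables unnamed, which stayed in the totals. Per gene the NM_ row with most depth summed over the tables was used. Log2 ratios used a pseudocount of 0.5, for genes whose row sum passed the lower quartile of each table compared. A share of 0 in 1 table gave an infinite 5′ shift, which entered counts and medians. The 2-fold limit is one of size, not a test. Depth counts bases, so the number of fragments is unknown and no counting interval was computed. Steps were tested on simulated tables.

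Named were all 9 members, for the 3 members furthest from 0 the 2 nearest genes, and other list genes past 2-fold, some of which are not reported here; HSPB2, the markers above the minimum and single windows were named after their values were seen. The members and lists were chosen with earlier results of these data known. Alternatives were the scaling, the bins summed, the carried value, the pseudocount, the level minimum, the row of a gene and the first window. Python 3.11.15, numpy 2.4.6 and pandas 2.3.3 were used.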

Additional observations from a re-analysis of the deposited data

How the results depend on the processing

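Counts of members past 2-fold and of 5′ shifts above 0 stayed within 1.5 times the reported count in 38 recomputations, and the others follow. With a level minimum 4 times higher, 1 member was past 2-fold in the treated and 0 in the edited cells. That minimum leaves out DNAJB4 for its depth in the treated comparison, and both DNAJB4 and CRYAB in the edited one. As deposited, with the carried value of the row above, 1 member was past 2-fold in the edited cells, since DNAJB4 stood at 0.97. With the first 10 coding bins 1 member had a 5′ shift above 0 between the edited and treated tables, BAG3 at 1.11. No value past 2-fold changed sign under the alternatives run. The treated to parental log2 ratio near 0 of DNAJB6 changed sign with the scaling (0.02 when centred on the median, 0.04 without the most abundant 1% of rows) and with all its rows summed (0.02). That of CRYAB was -0.01 with coding bins only and -0.23 with coding bins without the first 20. Small 5′ shifts of DNAJB1 changed sign with the window in both comparisons with the parental table, and that of CRYAB in the edited cells was -0.06 with the first 40 bins. The alternative with the first 65 codons was not run, because coding lengths were not used here. No paired analysis was possible because each condition has 1 table. With 1 table per condition and an unknown number of fragments, no depth limit can be set on a difference.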
